A study of Mus musculus with 12 samples.

Results

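The genes of the molecular motors were followed through maps of N6-methyladenosine (m6A), a methyl mark on adenosines of mRNA, in the hippocampus of mice with and without Tyrobp. Members were all genes whose symbol in the deposited lists begins as a kinesin heavy chain (Kif), a kinesin light chain (Klc1 to Klc4), a cytoplasmic dynein subunit (Dync), an axonemal dynein heavy chain (Dnah) or an unconventional myosin (Myo). They were 72 of 17814 genes, with 150 of 33622 m6A peaks in WT mice and 182 of 34935 in Tyrobp-/- mice. They also held 35 of the 5640 rows of the table in which the authors compared the genotypes. The symbols took in 35 kinesins, 2 kinesin light chains, 6 cytoplasmic dynein subunits, 11 axonemal dyneins and 16 myosins. The remaining 2 are not motors: Kif1bp encodes a protein that binds kinesins, and Kif16bos is a transcript from the strand opposite Kif16b. Both were kept in the totals because the rule takes them in.

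Motor proteins use ATP to walk along the cytoskeleton. Most kinesins carry cargo such as vesicles, mitochondria and RNA along microtubules away from the cell body, cytoplasmic dynein carries cargo back toward it, and myosins move on actin, in dendritic spines among other places. Other kinesins assemble the mitotic spindle or trim microtubule ends, and axonemal dyneins make motile cilia beat, which in the brain belong to the ependymal cells that line the ventricles. In mRNA, m6A sits mostly near stop codons and in 3′ UTRs, often within the sequence GGAC.

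Both groups were 6-month-old male C57BL/6 mice. WT mice were littermates of Tyrobp-/- mice, in which a TALEN pair had deleted bases of exon 2 of Tyrobp, the gene of a signalling adaptor of microglia, in every cell of the body. Each genotype had 3 samples, each pooled from 3 mice, and each sample gave 1 library of RNA precipitated with an m6A antibody (IP) and 1 input library. The 12 libraries held from 61189368 to 73554506 valid reads, and G and C made up from 48.46 to 49.33% of bases in the Tyrobp-/- IP libraries and from 49.16 to 50.24% in the WT IP libraries. The part of this difference in the results was not tested. Peaks were called on the 3 samples of a genotype together, so every peak has 1 fold enrichment (IP over input) per genotype, with no value per sample, no replicate error and no test between genotypes. The depth behind a single peak is unknown. The tissue was whole hippocampus, where fewer cells of a type and less RNA per cell cannot be told apart. Peaks were listed in both genotypes for 8 of 8 marker genes of hippocampal excitatory neurons, and no peak of Tyrobp itself was listed in either.

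Motor genes carried m6A peaks in every class, and more were listed in Tyrobp-/- than in WT mice. The ratio of peak numbers was 1.21 for motor genes and 1.04 for all genes. Kinesins had 77 peaks in WT and 89 in Tyrobp-/- mice, axonemal dyneins 21 and 30, myosins 36 and 43, cytoplasmic dynein subunits 10 and 12, and kinesin light chains 4 and 3. Of the 72 genes, 31 had more peaks in Tyrobp-/- mice (43.1%, against 31.5% of all 17779 genes with a peak), 31 had equal numbers (43.1% against 42.4%) and 10 had more in WT mice (13.9% against 26.2%). These differences between the lists had no replicate check.

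Many of the surplus peaks had a fold enrichment and a p-value that the caller gave to many peaks at once. A value was called recurring when at least 10 peaks of a list had the same fold enrichment and the same p, with p above 0. The most frequent were a fold of 6.84 with a p of 0.038 in WT, held by 835 peaks, and a fold of 6.67 with a p of 0.041 in Tyrobp-/- mice, held by 911 peaks, 9 of them in motor genes. In WT mice 26 of the 150 motor peaks were at such values (17.3%, against 18% of all WT peaks). In Tyrobp-/- mice 52 of 182 were (28.6%, 95% exact binomial interval 22.1 to 35.7%, against 19.5% of all Tyrobp-/- peaks). Intervals here and below cover counting error only. By class, WT and Tyrobp-/- peaks at recurring values numbered 12 and 25 in kinesins, 8 and 14 in axonemal dyneins and 4 and 11 in myosins. Without them, 124 motor peaks remained in WT and 130 in Tyrobp-/- mice, a ratio of 1.05 against 1.02 for all genes.

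**Figure D1:**
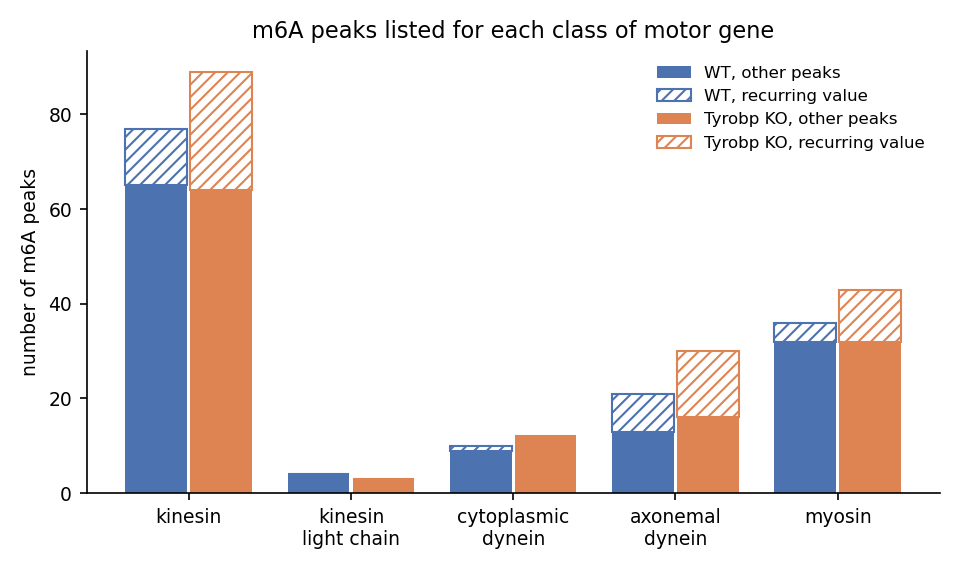
Number of m6A peaks listed for each class of motor gene (y axis) in WT (blue) and Tyrobp-/- mice (KO, orange), with peaks at recurring values hatched on top of the other peaks. The solid parts held 65 and 64 peaks for kinesins, 32 and 32 for myosins, 13 and 16 for axonemal dyneins, 9 and 12 for cytoplasmic dyneins and 4 and 3 for light chains, and the hatched parts were taller in Tyrobp-/- mice for kinesins, axonemal dyneins and myosins.

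A peak of the other genotype on the same strand overlapped most motor peaks. Of the WT motor peaks, 24 had none in Tyrobp-/- mice (16%, interval 10.5 to 22.9%, against 21.4% of all WT peaks). Of the Tyrobp-/- motor peaks, 51 had none in WT mice (28%, interval 21.6 to 35.1%, against 23.6% of all Tyrobp-/- peaks), and 27 of these 51 were at recurring values (52.9%, interval 38.5 to 67.1%, against 43.2% of all such Tyrobp-/- peaks). Without recurring values the share in Tyrobp-/- mice was 18.5%. It was not set beside the share of all peaks without recurring values, so it does not set motor genes apart from all genes.

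At the level of genes, 61 of the 72 had a peak in both lists. Dnah7c and Kif16bos had one in WT mice alone (2.78% of motor genes, against 9.06% of all genes). A peak in Tyrobp-/- mice alone was listed for 9 genes (12.5%, against 11.1% of all genes). Kif5b, the ubiquitous heavy chain of kinesin-1, had peaks of 14.3 and 2.54, both at recurring values. The peak of 14.3 lay outside the RefSeq bounds of Kif5b, so it may not belong to Kif5b. Kif2a, which removes tubulin from microtubule ends and prunes axon branches, had a 3′ UTR peak of 1.39 with a p of 2e-15 and a 5′ UTR peak of 4.29 at a recurring value. Kif2c and Kif23, which act in mitosis and cytokinesis, each had 1 peak at 6.67 with the recurring p of 0.041, as did Dnah6. The log10 of the peak-calling FDR was only -0.538 at each of these peaks. Dnah14 had a 3′ UTR peak of 3.39 with a p of 0.0003. Myo1c, a myosin that links membranes to actin, had a single 5′ UTR peak of 7.62 at a recurring value. Myo1f, a myosin of immune cells, had peaks of 6.67, a recurring value, and 2.33. Dnah7b had peaks of 7.62, a recurring value, and 3.81. Dnah7b and Dnah7c are close paralogs that may share reads, so the listing of Dnah7b in 1 genotype and Dnah7c in the other is uncertain. All peaks of 5 of the 9 genes (Dnah6, Kif23, Kif2c, Kif5b and Myo1c) were at recurring values, and the lowest p of any of the 9 was that of the Kif2a 3′ UTR peak.

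The position of the peaks differed from that over all genes in the inner exons. Internal exons held 28.7% of WT motor peaks (interval 21.6 to 36.6%) and 24.2% of Tyrobp-/- motor peaks (18.1 to 31.1%), against 11.3% and 10.7% of all peaks. First exons held 4.67% and 3.85%, against 11.5% and 11.6%, and 5′ UTRs held 10.7% (6.22 to 16.7%) and 12.1% (7.73 to 17.7%), against 18.9% and 17.3%. The share in 3′ UTRs, 48% and 47.8%, was close to the 47.2% and 49.3% of all peaks. Across the classes, 24 of 77 WT kinesin peaks and 13 of 36 WT myosin peaks lay in internal exons, whereas none of the cytoplasmic dynein peaks did in either genotype. Peaks of axonemal dyneins in Tyrobp-/- mice lay most often in last exons, 13 of 30, against 11% of all Tyrobp-/- peaks. The transcripts annotated at the last-exon peaks of this class had only 2 or 3 exons, whereas other Dnah1 peaks were annotated to a transcript of 78. These last exons are therefore not shown to be those of the full-length transcripts. The motor genes were not matched to other genes for length or number of exons, and the annotation takes 1 transcript per peak.

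**Figure D2:**
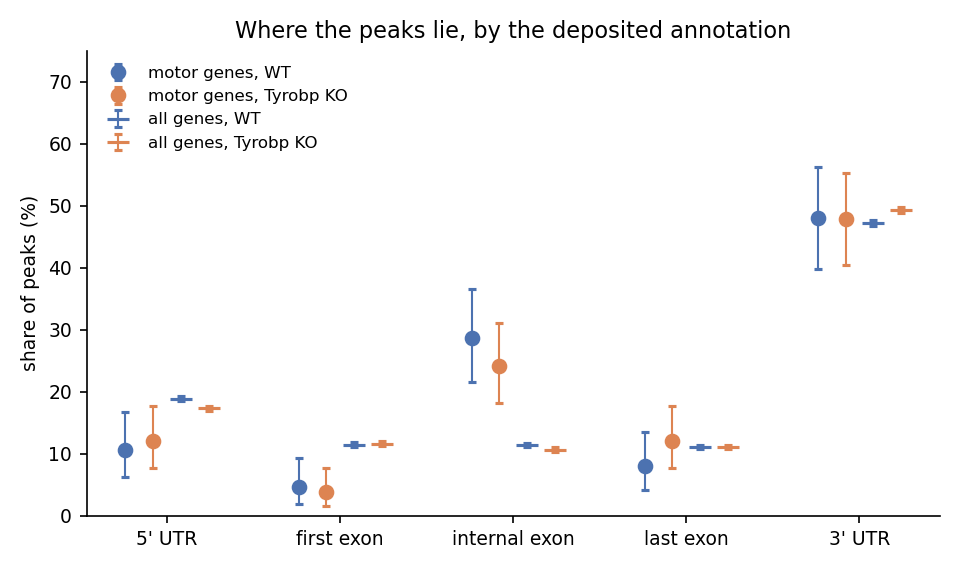
Share of m6A peaks in percent (y axis) by the site named in the deposited annotation (x axis) for motor genes (circles) and all genes (horizontal marks) in WT (blue) and Tyrobp-/- mice (KO, orange). Bars are exact 95% binomial intervals of counting error. The motor genes lie above all genes at internal exons and below them at first exons, and overlap them at 3′ UTRs.

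Sequence was looked at where a peak covered a transcription start, because the start windows are the sequence that could be read. GGAC was searched in the first 50 transcribed bases of each RefSeq start site (GRCm38.p6), on the transcribed strand and, separately, on the opposite strand. It lay on the transcribed strand in 20 of 67 windows of 57 motor genes (29.9%) and in 6194 of 32851 windows in all (18.9%), and on the opposite strand in 26.9% and 17.4%. Under a motor peak it was found at Kif7, a kinesin of Hedgehog signalling in primary cilia, and at Myo1c. The stretches are shown 5′ to 3′ on the transcribed strand with GGAC in capitals, because they are the motor starts where the motif and a peak coincide.

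Kif7, chr7:79715671-79715700, minus strand: gctgcgcgtcccgGGACtgcgctcgcactc

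Myo1c, chr11:75650541-75650568, plus strand: gtcctgagaagctGGACcagccacatcc

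The first base of the motif is base 21 from the start site of Kif7 and base 36 from that of Myo1c. The Kif7 peak had a fold of 14.6 in WT and 14.3 in Tyrobp-/- mice, and the Myo1c peak was the one of 7.62 listed in Tyrobp-/- mice alone. All of these folds were recurring values. Starts covered by peaks without GGAC in the window were those of Kif3b, Kif22, Kif26b, Klc1, Dnah9, Myo18a, Myo1f and Myo5a. The match describes these letters and names no methylated base.

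For the comparison of genotypes, each WT peak was paired with the Tyrobp-/- peak of the same gene that it overlapped most. This gave 115 pairs in 58 motor genes, of 23143 pairs in all. The centre of the motor pairs lay near 0. The median log2 ratio of fold enrichment, Tyrobp-/- over WT, was -0.02 (order-statistic 95% interval over pairs, -0.09 to 0.12), against 0.05 over all pairs, and 56 pairs lay above 0, 58 below and 1 at 0. A ratio of 2-fold or more was found at 9 pairs upward (7.83%, against 7.13% of all pairs) and 11 downward (9.57%, against 6.27%). Either way these were 20 pairs (17.4%, against 13.4%) in 17 genes, and 9 of the 20 had a recurring value in 1 or both genotypes (45%, against 30.4% of all 2-fold pairs).

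**Figure D3:**
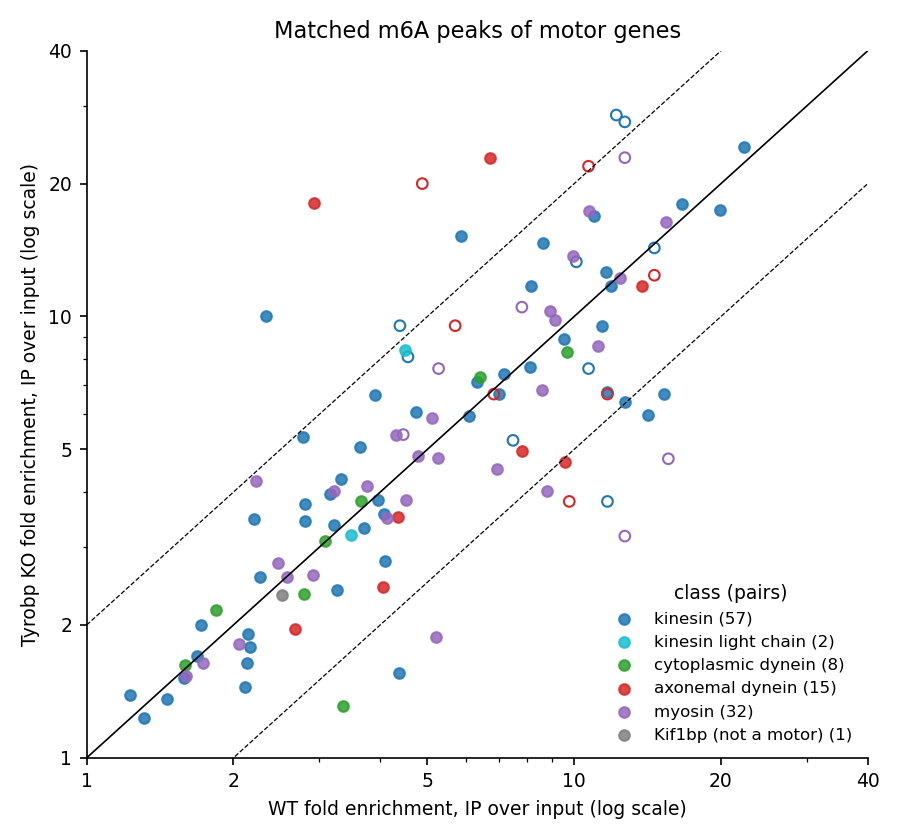
Fold enrichment of IP over input of the 115 matched motor peaks in WT (x axis) and Tyrobp-/- mice (KO, y axis), both on log scales. Each point is a pair of peaks coloured by class, open points have a recurring value in at least 1 genotype, the solid line marks equal values and the dashed lines a 2-fold ratio. Most points follow the solid line, with 9 above the upper dashed line and 11 below the lower one.

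The pairs that were called most strongly differed least. At 43 pairs in 29 genes both peaks had a peak-calling FDR below 1e-50, and none of these differed by 2-fold (289 of 9069 such pairs in all, 3.19%). Their log2 ratios ran from -0.62, at a 3′ UTR peak of Myo16, to 0.94, at a 3′ UTR peak of Kif3b. Where the weaker peak had an FDR from 1e-50 to below 1e-5, 6 of 38 pairs differed by 2-fold (15.8%, against 13.9%). Where it was at or above 1e-5, 14 of 34 did (41.2%, against 28%). Fold and FDR come from the same reads, so this is a description of the pairs and not a separate measurement.

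By kinesin family, none of the 3 pairs of kinesin-1, the 2 pairs of its light chains and the 11 pairs of kinesin-2 differed by 2-fold. In kinesin-3, 3 of the 16 pairs did (18.8%). Over all pairs the share was 13.4%, and these counts are too small to set the families apart from it. These families hold most motors of axonal transport. In kinesin-1, Kif5c, a neuronal heavy chain, had 3′ UTR peaks of 3.22 in WT and 3.37 in Tyrobp-/- mice, and of 1.68 and 1.70, and the heavy chain Kif5a had 2.20 and 3.48 (log2 ratio 0.66). Klc1, a light chain that joins kinesin-1 to its cargo, had 3.49 and 3.20. Klc2 had a 5′ UTR pair of 4.49 and 8.39 (0.90), which overlapped by 24 bp. This pair lay outside the RefSeq bounds of Klc2, so it may not belong to Klc2. In kinesin-2, Kif3a, a partner of Kif3b, had a weak 3′ UTR pair of 1.46 and 1.36. In kinesin-3, Kif1a, which carries synaptic vesicle precursors, had a weak 3′ UTR pair of 1.23 and 1.39, and the pairs past 2-fold were those of Kif16b, Kif28 and Kif1b described with the other kinesins.

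The highest enrichment of any motor peak at which the caller listed a p of 0 in both genotypes was that of Kif3b. Its 5′ UTR peak, with exon blocks within chr2:153291413-153320625 in WT mice, had 22.3 in WT and 24.2 in Tyrobp-/- mice. In the 3′ UTR of the same gene a pair of 2.78 and 5.33 lay just short of 2-fold, and another of 3.71 and 3.32 did not share that direction. Kif26a, an atypical kinesin without ATPase activity, had 19.9 and 17.4 in an internal exon. Kif17, which carries NMDA receptor subunits in dendrites, had 5 peaks in WT and 6 in Tyrobp-/- mice, and its 4 pairs had log2 ratios from -0.19 to 0.29. The pair of 7.19 and 7.39 lay outside the RefSeq bounds of Kif17 and over Sh2d5, so it may not belong to Kif17.

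Kinesins accounted for 5 of the 9 pairs higher and 4 of the 11 lower in Tyrobp-/- mice. These were 15.8% of the 57 kinesin pairs, against 13.4% of all pairs. Kif19a, which limits the length of motile cilia, had a 3′ UTR pair of 2.33 and 10 (log2 ratio 2.10) at chr11:114790350-114790530 in WT mice. Its Tyrobp-/- peak also overlapped a second WT peak of 5.86. Kif19a peaks overlap the RefSeq bounds of Btbd17, so the reads may not be from Kif19a alone. Kif22, a chromosome-arm motor of mitosis, had a 5′ UTR pair of 12.2 and 28.6 (1.23), the highest fold of any motor peak in Tyrobp-/- mice. Kif28 had a 3′ UTR pair of 12.7 and 27.6 (1.12). The WT value of Kif22 and both values of Kif28 were recurring. Kif16b, a motor of early endosomes, had a last-exon pair of 4.39 and 9.53 (1.12), with the second value recurring and an overlap of 31 bp, and a 3′ UTR pair of 12.7 and 6.4 just short of 2-fold in the other direction (-0.99). Of its 5 pairs, those of the 3′ UTR peak at 11.9 and 11.7 and the internal exon peak at 6.33 and 7.10 were closest to equal. Kif16b had 6 peaks in each genotype.

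Kif26b, a close relative of Kif26a, held differences in both directions. Its 5′ UTR pair at chr1:178529125-178529515 in WT mice had 5.86 in WT and 15.2 in Tyrobp-/- mice (1.38). A pair in exon 12 of 15 had 4.38 and 1.56 (-1.49), where the Tyrobp-/- peak had a p of 0.017. The gene's strongest call, in the 3′ UTR, had 16.6 and 18.0, and another pair of exon 12 had 3.95 and 3.83. The pairs of this gene were thus not displaced in 1 direction.

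Among the other kinesin pairs lower in Tyrobp-/- mice, Kif1b had the strongest calls. Kif1b carries mitochondria and synaptic vesicle precursors. A 3′ UTR peak at chr4:149236878-149238408 had 15.3 in WT, paired with 6.67 in Tyrobp-/- mice (-1.20), where a further peak of 8.36 lay over the other end of the same stretch. The WT call was 1 peak and the Tyrobp-/- call was split, so the ratio compares regions of unequal length. A neighbouring 3′ UTR pair of Kif1b had 11 and 16.9 (0.62). Kif4, a chromosome motor, had 14.2 and 5.99 in the 3′ UTR (-1.25). Kifc5b had 11.7, a recurring value, and 3.81 (-1.62) in a last exon, with an overlap of 31 bp. Another Tyrobp-/- peak of 6.67, a recurring value, overlapped the same WT peak by as many bases, so this ratio depends on the pairing. Kifc5b is a near copy of Kifc1, with which it may share reads.

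Axonemal dyneins held 4 of the 9 pairs higher in Tyrobp-/- mice on 15 pairs in all, and 2 of the 11 lower. Either way these were 40% of the 15 pairs, against 13.4% of all pairs. The largest ratio of any motor pair was that of Dnah2, whose 3′ UTR peak at chr11:69420809-69420989 in WT mice had 2.93 in WT and 18.1 in Tyrobp-/- mice (2.63). Dnah9 had a 5′ UTR pair of 4.88 and 20 (2.04), both recurring values. Its Tyrobp-/- peak spanned chr11:66168035-66298763, reached the RefSeq bounds of Shisa6 and overlapped another Dnah9 peak of 21.9. Dnah3 had 3′ UTR pairs of 6.71 and 22.9 (1.77) and, in the other direction, 9.57 and 4.69 (-1.03). Another WT peak of 7.81 and another Tyrobp-/- peak of 4.25 overlapped that lower pair, so its ratio depends on the pairing. Dnah17 had a last-exon pair of 10.7 and 21.9 (1.03), both recurring values. Dnah10 had 9.77, a recurring value, and 3.81 (-1.36) in an internal exon. Over the 15 pairs 10 lay below 0 and 5 above, with a median log2 ratio of -0.24, so the class was spread to both sides rather than displaced upward.

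The same genes also held pairs that differed little. A second Dnah2 pair, in exon 39 of 85, had 13.8 and 11.7, and a last-exon pair had 14.6 and 12.4. In WT mice a Dnah2 peak of 26.4, the highest of any motor peak in that genotype, overlapped another of 4.05 at the same exon, and the Tyrobp-/- list had 4.76 and 2.44 there. Only the 4.05 and 2.44 peaks formed a pair, by the larger overlap, so the ratio at this exon depends on the pairing. Dnah1 had the most peaks of the class, 6 in WT and 8 in Tyrobp-/- mice, and none of its 3 pairs passed 2-fold. This depends on the pairing, because its WT peak of 5.7 had a long span that took in other peaks. Left unpaired were a Tyrobp-/- peak of 10.5 and a WT peak of 3.17 that overlapped each other, both at recurring values. A WT peak of 12.2 was also left unpaired, over the Tyrobp-/- peak of 9.53 that was paired with the peak of 5.7. Peaks that overlapped another peak of their own gene numbered 13 in WT and 14 in Tyrobp-/- mice. Exon blocks of 6 and 12 motor peaks, Kif1bp included, lay over a protein-coding gene with another symbol in RefSeq. For Kif1bp that symbol is its own newer name, Kifbp. Whole-gene bounds on either strand were used, so exons of the other gene were not checked.

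Of 8 marker genes of ependymal and other multiciliated cells, 6 had a peak, with 11 peaks in each genotype. None of their 9 pairs differed by 2-fold, against 13.4% of all pairs. The highest fold of Foxj1, the master regulator of motile cilia, was 29.3 in WT and 28.7 in Tyrobp-/- mice. Of 5 choroid plexus markers 3 had a peak, with 8 peaks in WT and 4 in Tyrobp-/- mice, and no peak of Ttr or Folr1 was listed. Of 6 markers of dividing cells 4 had a peak, with 7 and 6, and 1 of their 2 pairs was 2-fold lower. Of 8 microglial markers 6 had a peak, with 20 and 21, and 1 of their 14 pairs was 2-fold lower. Of the 15 pairs of the excitatory neuron markers 2 were 2-fold lower. Over all pairs 6.27% were 2-fold lower, and the marker counts are too small to set any of these lists apart from that share. Fold enrichment is not an RNA level, and the part of these cells in the motor results was not tested.

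**Figure D4:**
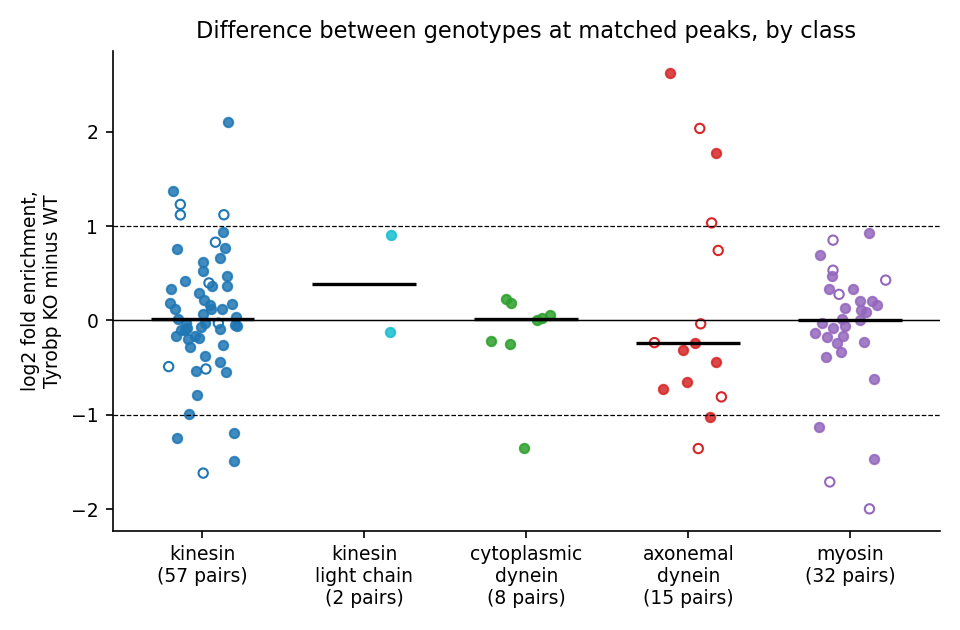
Log2 ratio of fold enrichment, Tyrobp-/- over WT mice (KO minus WT on the log2 scale, y axis), at the matched peaks of each class of motor gene (x axis). Each point is a pair, open points have a recurring value in at least 1 genotype, thick lines are medians and dashed lines mark 2-fold. Of the 15 axonemal dynein pairs 6 lie outside the dashed lines, and all 4 myosin pairs outside them lie below.

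Cytoplasmic dynein subunits had log2 ratios from -0.25 to 0.23 at 7 of 8 pairs. Dync1h1, the heavy chain that holds the motor, had a 3′ UTR pair of 9.67 in WT and 8.30 in Tyrobp-/- mice. The light intermediate chain Dync1li1 had 3.66 and 3.82, and the intermediate chain Dync1i1 had 1.59 and 1.62. Dync1li2, another light intermediate chain with 5 and 4 peaks, had 3.08 and 3.10 in the 3′ UTR and 6.42 and 7.31 in the 5′ UTR. Its first-exon pair, 3.35 and 1.31, was the exception (-1.35), and a second WT peak of 1.39 overlapped the same stretch.

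Of 32 myosin pairs 4 differed by 2-fold (12.5%, against 13.4% of all pairs). None was higher in Tyrobp-/- mice (against 7.13% of all pairs) and all 4 were lower (against 6.27%). Myo18a, a myosin that binds the Golgi membrane, held 2 of them and the most peaks of any motor gene, 10 in WT and 11 in Tyrobp-/- mice. A first-exon pair had 12.7, a recurring value, and 3.18, a ratio of 0.25. A pair in exon 41 of 42, at chr11:77857690-77859343 in WT mice, had 5.21 and 1.88 (-1.47), with p of 1e-105 and 3.2e-43. A further Tyrobp-/- peak of 4.29, a recurring value, lay within the same WT peak. The ratio thus compares regions of unequal length, 481 exonic bases in WT and 301 in Tyrobp-/- mice. The strongest 3′ UTR pair of the gene had 8.59 and 6.81 and its 5′ UTR pair 5.12 and 5.89, whereas a pair of recurring values in exon 4 of 6 had 12.7 and 22.9, which made Myo18a the gene of the highest myosin fold in Tyrobp-/- mice. Myo18b, its muscle relative, had 15.6 and 4.76 (-1.71), both recurring values, in an internal exon. Myo5a, the motor that brings endoplasmic reticulum into dendritic spines, had a 5′ UTR pair of 8.79 and 4.02 (-1.13) at chr9:75071135-75071434 in WT mice. Its 3′ UTR pairs of 8.94 and 10.3, and of 2.47 and 2.77, did not share that direction.

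The other myosins were closer to equal. Myo9b, an unconventional myosin, had 15.4 and 16.4 in the 3′ UTR, and its relative Myo9a had 12.4 and 12.2. Myo9a also had an internal exon pair of 2.23 and 4.23, short of 2-fold (0.92). Myo10, the motor of filopodia, had 3′ UTR pairs of 10.7 and 17.3 (0.69) and of 9.13 and 9.84. Myo6, which walks toward the minus end of actin and acts in endocytosis, had 2.05 and 1.81.

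The proteins that load and steer the motors were read in the same way. Of 71 genes of adaptors, dynactin, dynein light chains, dynein regulators, myosin partners and conventional myosins, 58 had a peak, with 128 in WT and 120 in Tyrobp-/- mice, a ratio of 0.94. Of their 86 pairs, 1 was 2-fold higher and 3 were lower (4.65% either way, against 13.4% of all pairs). The 13 pairs of dynactin, which couples dynein to cargo, and the 26 pairs of kinesin adaptors held none. The pair that was higher was a 3′ UTR pair of Hook2, a dynein adaptor, with 4.35 in WT and 10.3 in Tyrobp-/- mice (log2 ratio 1.24). The 3 that were lower belonged to genes of the myosin side. Myh10, a heavy chain of conventional nonmuscle myosin, had 67.4 and 17 in the 5′ UTR (-1.99). Myl6, a light chain of the same motor, had 23.3 and 7.42 in the 5′ UTR (-1.65), and Mlph, which links Myo5a to melanosomes, had 9.77 and 4.13 in the 3′ UTR (-1.24). None of these 4 pairs was at a recurring value, and the 4 were named after their values were seen. Of 54 motor genes listed by their role, 44 had a peak.

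The table in which the authors compared the genotypes was used for positions only. Its 35 motor rows lay in 25 genes, 19 of them in 3′ UTRs (54.3%, against 53.3% of all rows). It overlapped 25 of the 115 motor pairs (21.7%, against 15.5% of all pairs) and 10 of the 20 that differed by 2-fold (50%, against 29.2%).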

How the data were processed

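Hippocampal poly(A) RNA was profiled by MeRIP-seq in 3 pooled samples per genotype. The authors trimmed reads with fastp, mapped them with HISAT2 to Ensembl v96 (GRCm38), called peaks with exomePeak once per genotype, over its samples together, and used ChIPseeker for annotation. Deposited by the authors were read counts per library, the percent of bases at Q20, at Q30 and that were G or C, and each peak's p-value, FDR (log10) and fold enrichment, the ratio of IP to input. The fold changes, p-values and FDR of the authors' own comparison were not used.

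Members and gene lists were chosen with earlier results of these data known. Peaks were paired 1 to 1 by gene and largest overlap in both directions (at least 1 bp, introns inside a peak included). A pair was called at a ratio of at least 2. Named genes were those with a called pair or close to it, with the most peaks or highest folds of their class, with a peak in 1 genotype, or listed by role. Other genes, such as Hook2, were named for a value or position seen in the data. Intervals are Clopper-Pearson at 95%. Pairing was run on a copy of the WT list with some peaks dropped and some folds changed. Positions were kept, so the pairing of shifted, split or overlapping peaks was not tested. Python 3.11.15, pandas 2.3.3, numpy 2.4.6 and scipy 1.17.1 were used. RefSeq matched 71 of 72 symbols. Kif1bp, a member, was left out of the adaptor list. Alternatives changed the threshold, centring, FDR, overlap rule and number of peaks per gene. Recurring values, an FDR below 1e-50 and the removal of Kif1bp and Kif16bos were added after the data were seen.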

Additional observations from a re-analysis of the deposited data

How the results depend on the processing

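With pairs required to differ 1.5-fold, 20 motor pairs were higher and 17 lower in Tyrobp-/- mice (32.2%, against 29.6% of all pairs). With 3-fold they were 4 and 3 (6.09% against 4.95%), in place of 9 and 11 (17.4% against 13.4%). With both peaks at an FDR below 1e-5 the numbers were 2 and 4 (7.41% against 8.2%). With 1 pair per gene, that of lowest WT p, they were 4 and 3 (12.1% against 11.8%). Without recurring values they were 4 and 7 (11.8% against 10.8%), and with an FDR below 1e-50 0 and 0 (0% against 3.19%). Pairs with a reciprocal overlap of at least 50% gave 6 and 8 (17.1% against 10.3%), and overlap of exonic blocks gave 10 and 12 (18.6% against 13%). The lists held 96 and 104 motor peaks (WT and Tyrobp-/-) at an FDR below 1e-5, and 88 and 105 at a fold of at least 4. The share in 3′ UTRs was 61.5% and 65.4% at an FDR below 1e-5, and 65.1% and 70% with only the peak of lowest p in each gene. With a reciprocal overlap of 50%, peaks found in 1 list were 43.3% and 53.3%. In Tyrobp-/- mice that share was 17.3% at an FDR below 1e-5 and 18.5% without recurring values. None of these shares of peaks found in 1 list was set beside that of all peaks under the same rule. They therefore do not set motor genes apart from all genes. The median log2 ratio lay between -0.07 and 0.02 in all settings. The causes of these moves beyond the smaller number of peaks were not tested. The FDR below 1e-50, the recurring values and the removal of Kif1bp and Kif16bos were chosen after seeing the data. No paired analysis was possible because each peak has 1 value over the pooled replicates of a genotype, and for the same reason no replicate could be left out.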
